A study of Mus musculus with 2 samples.

Results

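The genes described here are 10 mouse genes of 4 kinds: the S100 genes S100a4, S100a6, S100a10 and S100a11, the annexins Anxa1, Anxa2 and Anxa5, the galectins Lgals1 and Lgals3, and the intermediate filament gene Vim. The list is given by name and was drawn up with earlier results of these data known. All 10 are among the 27998 genes counted. S100 proteins are small calcium sensors, and annexins bind membrane phospholipids when calcium rises. Some S100 proteins form complexes with an annexin, S100a10 with Anxa2 and S100a11 with Anxa1 among them. Galectins bind sugar chains on glycoproteins inside and outside the cell, and vimentin forms the main cytoplasmic filament of leukocytes and mesenchymal cells. In the intestine, blood monocytes enter the lamina propria through the chemokine receptor Ccr2, and as they mature into macrophages they lose Ccr2 and gain the complement C1q genes.

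The cells are small intestinal macrophages whose RNA was counted cell by cell with the 10x Genomics 3′ v2 kit, in which a unique molecular identifier (UMI) marks each captured transcript end. There was 1 library per genotype, and each was made from a pool of 3 to 4 intestines, so the spread between animals is not seen. The controls, male C57BL/6J mice from Janvier, are called wild type. The Ccr2-/- animals were of JAX strain #:004999, bred in-house, and lack the receptor in every cell, not only in macrophages. Live CD45+ cells that were negative for CD3, TCRb, B220, SiglecF, Ly6C and Ly6G and positive for CD11b, MHCII and CD64 had been sorted, so monocytes with surface Ly6C were gated out in both groups. Per the labels the wild-type sample was run in 2 lanes, told apart by the barcode suffix. The lanes are read as a technical repeat and not as replicate animals, although they differed in some marker sums, as given below. Genotype, supplier and library are the same split and cannot be told apart, and no test between genotypes was possible. Values are therefore given as a description, with intervals that cover counting error only, and "at least 2-fold" is used in place of a test.

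After removal of cells with under 200 genes or over 10% mitochondrial UMIs, 3016 of 3054 wild-type cells (2109 in lane 1 and 907 in lane 2) and 2612 of 2774 knockout cells remained. The median depth was 6129 UMIs per wild-type cell and 2439 per knockout cell. The lanes shared 5 barcodes, and the wild-type and knockout libraries shared 6. Ccr2 itself stood at 331 UMIs per 1000000 (CPM) in wild type and 6.88 CPM in the knockout. Whether the counted 3′ end lies in the deleted part of the gene is not given in the sources used here. All 10 macrophage markers listed were detected in both libraries, at a summed 35414 CPM in wild type and 25175 CPM in the knockout. They did not all go 1 way. C1qa (4927 and 2919 CPM) and C1qb (4207 and 1678 CPM) were lower in the knockout. C1qc (3339 and 3798 CPM), Csf1r (895 and 1576 CPM) and Mertk (35.2 and 96.8 CPM) were higher, and the rest are not given singly. The 9 resident macrophage markers summed to 603 CPM in wild type and 1508 CPM in the knockout, where 1 was at 0. The 11 monocyte markers, Ccr2 included, summed to 730 CPM in wild type and 212 CPM in the knockout, where Hp was at 0, and the 10 without Ccr2 to 399 and 205 CPM. Cells with UMIs of at least 3 marker genes of a T cell or ILC, B lineage, epithelial, fibroblast, endothelial or smooth muscle list, called other-type cells below, made up 5.80% of wild-type cells (175) and 3.71% of knockout cells (97). In wild type 124 of them carried epithelial genes, and 9 fibroblast and 0 endothelial genes. In the knockout 28 carried fibroblast, 18 endothelial and 20 epithelial genes. The 8 fibroblast markers summed to 42.0 CPM in wild type and 350 CPM in the knockout, the 7 endothelial markers to 55.4 and 210 CPM, the 4 haemoglobin genes to 761 and 7429 CPM, and the 10 genes linked to stress at dissociation to 6151 and 20777 CPM. The wild-type lanes differed in some sums. In lanes 1 and 2 the haemoglobin genes were at 1078 and 3.44 CPM, the fibroblast markers at 51.5 and 19.3 CPM and the macrophage markers at 33321 and 40409 CPM. The endothelial (55.4 and 55.5 CPM) and stress sums (6179 and 6084 CPM) were alike. The part of these marker differences in the results below was not tested, except where values without the other-type cells are given.

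On GRCm38 the S100 members lie on chromosome 3, S100a4 at chr3:90603771-90606045, S100a6 at chr3:90612882-90624181, S100a11 at chr3:93520488-93526287 and S100a10 at chr3:93555080-93564643, all on the plus strand. Anxa1 lies at chr19:20373428-20390944 on the minus strand, Anxa2 at chr9:69453620-69491795 on the plus strand and Anxa5 at chr3:36448923-36475894 on the minus strand. Lgals1 lies at chr15:78926725-78930465, Lgals3 at chr14:47367751-47386160 and Vim at chr2:13573927-13582826, all on the plus strand. S100a4 shares 2115 bases with the annotated same-strand gene Gm42674 (chr3:90601904-90605885), which is listed with 0 UMIs in both libraries. Reads that fit both genes may not have been counted for either, so the level of S100a4 is uncertain and may be too low in every library.

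RefSeq promoter entries (GRCm38.p6) were matched for 8 members, all but S100a10 and Lgals1. In the 250 bases before the start, read on both strands, the TATA box letters TATAAA occurred in S100a4, Anxa1, Anxa2 and Vim, 4 of 8, and in 12.4% of 32851 promoters. The AP-1 letters TGANTCA occurred in S100a11 and Anxa2, 2 of 8, and in 6.75% of all promoters. The GC box letters GGGCGG occurred in S100a11, Anxa2 and Lgals3, 3 of 8, and in 32.7% of all promoters. No S100a6 or Anxa5 promoter held any of the 3 motifs in this window. The members with TATA or AP-1 letters were higher in cells with Ccr2, as described below, and so was S100a6, which held none of the 3 motifs. Stretches of 30 bases around the TATA letters and around the AP-1 letters nearest the start are shown 5′ to 3′ on the strand of the gene, with the motif in capitals.
S100a4 TATA (chr3:90603726-90603755, plus strand): gggcctggcagggTATAAAtaggtcagatt
Anxa1 TATA (chr19:20390687-20390716, minus strand): tcagttcatatccTATAAAatcaggagtcc
Anxa2 TATA (chr9:69453653-69453682, plus strand): aggatggggcgggTATAAAagccccaccca
Vim TATA (chr2:13574266-13574295, plus strand): ttcctaacagtgtTATAAAagcagcgccct
S100a11 AP-1 (chr3:93520446-93520475, plus strand): gcgggcacagccTGAGTCAggctgaggggc
Anxa2 AP-1 (chr9:69453576-69453605, plus strand): ttccaagttggaTGAGTCAcccagcagggt
The TATA letters began 31 bases before the RefSeq start in S100a4, 32 in Anxa1 and Vim, and 17 in Anxa2. GENCODE M21 holds longer transcripts of Anxa1, Anxa2 and Vim that start further upstream, so these distances depend on the start used. A match of letters is a description and shows no binding.

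All 10 genes were lower in the Ccr2-knockout library than in wild type, and together they took 0.172% of wild-type UMIs (1715 CPM, with 1684 CPM in lane 1 and 1790 CPM in lane 2) against 0.0755% in the knockout (755 CPM). Vim was furthest apart at 4.10-fold, and S100a10, S100a11, Lgals1, Lgals3, Anxa1 and Anxa2 were between 2.30-fold and 2.69-fold lower. S100a4, S100a6 and Anxa5 were lower by less than 2-fold. In all, 7 of 10 were at least 2-fold lower, where 3.12% of the 7401 genes with a mean of at least 10 CPM were that much lower and 9.04% that much higher. S100a4 was under that minimum. The median log2 ratio of knockout to wild type, with 1 CPM added to each side, was -1.26 over the 10 genes and 0.18 over the 7401. Between the wild-type lanes none of the 10 differed by 2-fold (0.838% of genes were lower and 0.0405% higher in lane 2), with log2 ratios from -0.06 to 0.55. In cells with 2000 to 4000 UMIs alone, taken because the libraries differ in depth, 6 of 10 were at least 2-fold lower and the median was -1.11. The share of all genes that much lower was not counted in these cells. There S100a6 (-1.63) and not Vim (-1.27) was furthest apart, S100a4 was at -1.11, and Lgals3 (-0.84), Lgals1 (-0.82) and Anxa1 (-0.70) were short of 2-fold. Anxa1 was also short of it at no more than 5% mitochondrial UMIs (-0.98) and without lane 2 (-0.94). Scaling by median-of-ratios size factors moves the median of all genes to 0 and the median of the 10 to -1.45.

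**Figure D1:**
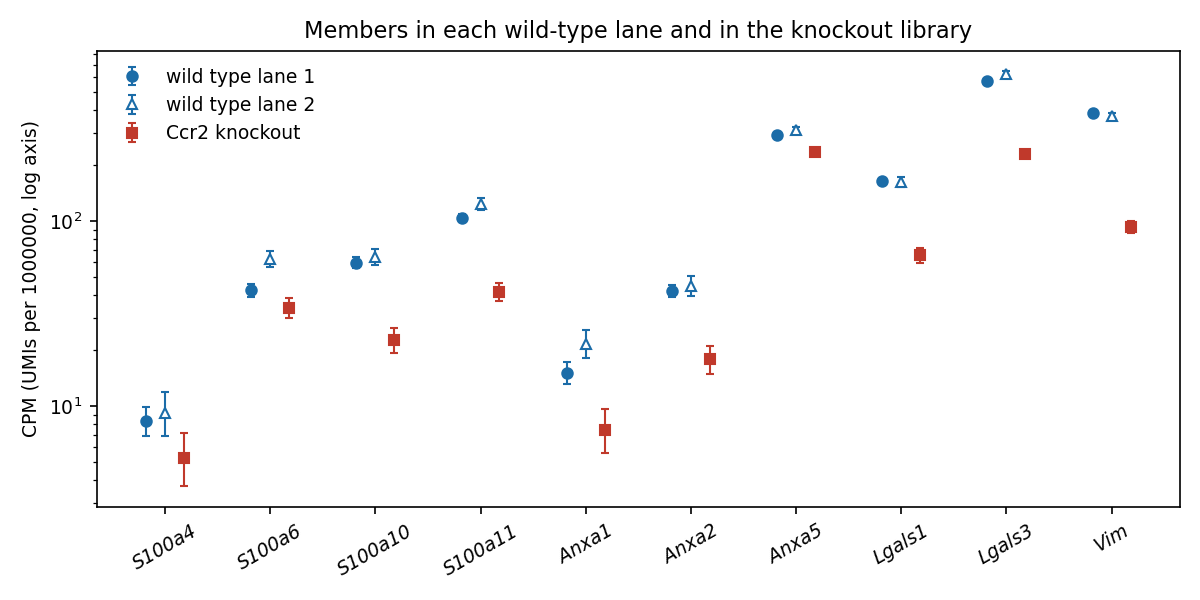
Level of each gene in UMIs per 1000000 (CPM, log axis) in wild-type lane 1 (filled circles), wild-type lane 2 (open triangles) and the knockout library (red squares), with exact 95% Poisson intervals of the summed counts. All 10 knockout points lie below both lanes; the gap is widest for Vim (386 and 370 CPM against 93.0) and narrow for Anxa5 (293 and 309 against 236).

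Among the S100 genes, S100a11, which is widely expressed and partners with Anxa1, was the most abundant at 109 CPM in wild type (95% Poisson interval 105 to 114), with 104 in lane 1 and 123 in lane 2, against 41.3 CPM (36.8 to 46.2) in the knockout. S100a10, which holds Anxa2 at the plasma membrane and binds plasminogen there, stood at 61.0 CPM (57.7 to 64.4), with 59.6 and 64.2 in the lanes, against 22.7 (19.4 to 26.5). For both genes the lanes lay together and the knockout apart, at log2 ratios of -1.38 (-1.58 to -1.23) and -1.39 (-1.67 to -1.19). S100a6, also called calcyclin, stood at 48.2 CPM (45.2 to 51.3), with 42.2 in lane 1 and 62.4 in lane 2, against 34.0 (29.9 to 38.5). Here the lanes differed from each other by a log2 ratio of 0.55, more than lane 1 differed from the knockout (-0.30). S100a4, a binder of non-muscle myosin, stood at 8.56 CPM (7.35 to 9.92), with 8.30 and 9.17 in the lanes, against 5.23 (3.70 to 7.18). Its knockout interval overlapped those of both lanes. It was the scarcest of the 10, and its UMIs sat in few cells: the 10 richest wild-type cells held 58.8% of its 177 UMIs, and in the knockout 15 cells held all 38.

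Among the annexins, Anxa5, the phosphatidylserine binder used to stain dying cells, stood at 298 CPM (291 to 305), with 293 and 309 in the lanes, against 236 (225 to 248) in the knockout. Its log2 ratio of -0.33 was the smallest difference of the 10. Anxa2, the partner of S100a10, stood at 42.7 CPM (39.9 to 45.6), with 41.9 and 44.5 in the lanes, against 17.9 (14.9 to 21.2). Anxa1, an anti-inflammatory protein that signals through formyl peptide receptors, stood at 17.1 CPM (15.4 to 19.0), with 15.2 and 21.8 in the lanes, against 7.43 (5.58 to 9.70). The knockout intervals of Anxa1 and Anxa2 lay below those of both lanes, at log2 ratios of -1.10 and -1.21.

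The galectins and Vim were abundant and spread over many cells. Lgals3, a marker of macrophages that joins damaged endosomes and phagosomes, stood at 586 CPM (575 to 596), with 570 and 623 in the lanes, against 232 (221 to 243). Lgals1, which signals mainly to T cells, stood at 164 CPM (158 to 170), with 164 and 163 in the lanes, against 65.4 (59.6 to 71.5). Vim stood at 381 CPM (373 to 390), with 386 and 370 in the lanes, against 93.0 (86.2 to 100.3). For all 3 genes the lanes differed by far less than either did from the knockout, at log2 ratios of -1.34, -1.31 and -2.02, and 0.0946% of the 7401 genes had a lower ratio than Vim.

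The knockout counts of several members came in large part from the 97 other-type cells. These held 63.8% of the knockout's Anxa2 UMIs, 58.7% of its S100a6, 51.5% of its S100a10, 46.3% of its Anxa1, 36.0% of its S100a11 and 33.7% of its Lgals1, but 7.23% of its Anxa5 and 2.56% of its Lgals3. In wild type the 175 other-type cells held at most 23.9% of any member, of S100a10. Their Lgals3 stood at 596 CPM, against 111 CPM in those of the knockout, and their Anxa5 at 283 against 320 CPM. The rule thus set aside unlike cells in the 2 libraries, which also differed in depth. Without these cells all 10 remained lower in the knockout and 8 of 10 were at least 2-fold lower (3.49% of 7302 genes were), with a median log2 ratio of -1.81. Anxa2 was then at 40.3 CPM in wild type and 6.83 CPM in the knockout, a log2 ratio of -2.40 (-3.02 to -2.13). S100a6 was at 49.0 and 14.8 CPM, moving from -0.49 to -1.66. S100a10 was at 50.5 and 11.6 CPM, a log2 ratio of -2.03. Vim was at 386 and 78.1 CPM, a log2 ratio of -2.29. Anxa5 (-0.37), Lgals3 (-1.29) and S100a4 (-0.86) moved least, and S100a4 was at 9.26 and 4.65 CPM.

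**Figure D2:**
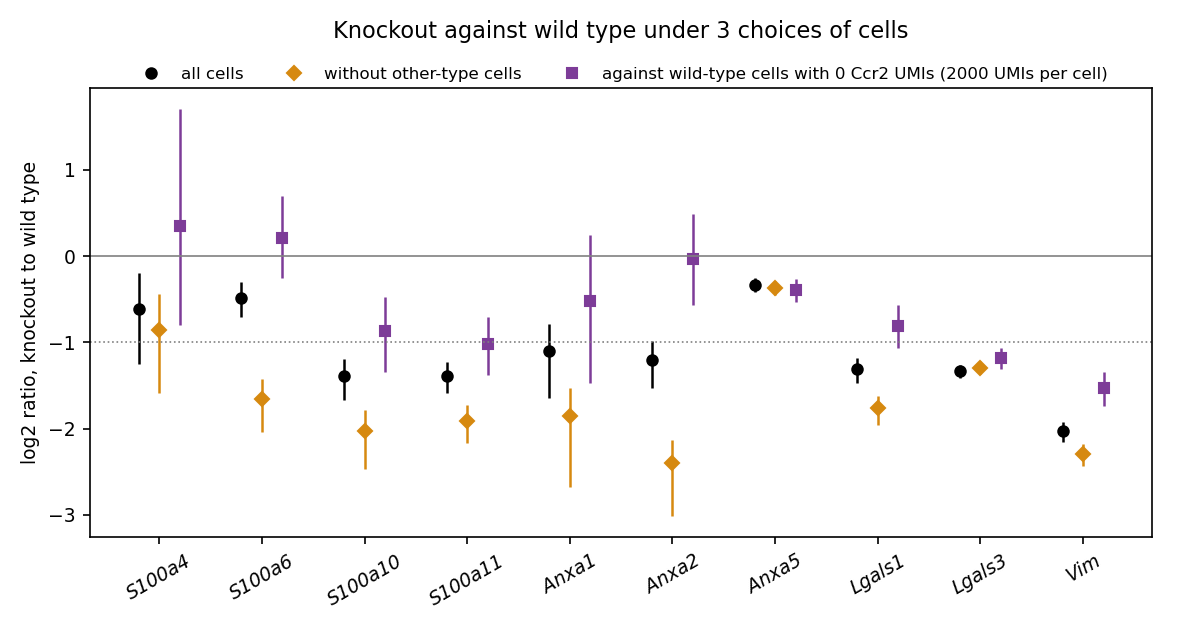
Log2 ratio of knockout to wild type (1 CPM added) with 95% counting intervals, over all cells (black circles), without other-type cells (orange diamonds), and against the wild-type cells with 0 Ccr2 UMIs at 2000 UMIs per cell (purple squares); the dotted line marks 2-fold lower. Leaving out other-type cells moves S100a6 from -0.49 to -1.66 and Anxa2 from -1.21 to -2.40, while Anxa5 lies at -0.33, -0.37 and -0.40 in the 3 settings.

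The share of cells with at least 1 UMI, read after each cell had been thinned at random to 1000 UMIs (196 knockout cells and 1 wild-type cell were too shallow), was lower in the knockout for 10 of 10 genes. Lgals3 was found in 35.7% of wild-type cells outside the B lineage (95% Clopper-Pearson interval 34.0 to 37.5) and 16.7% (15.2 to 18.2) of such knockout cells. Before thinning these shares were 78.3% and 34.9%. B lineage cells were taken as a measure of free RNA, although their own expression of a gene cannot be told apart from it here. Among them Lgals3 was found at 1000 UMIs in 2 of 25 wild-type cells (8.0%) and 1 of 19 knockout cells (5.26%). Before thinning these B lineage shares were 56.0% and 15.8%. Before thinning the B lineage cells had median depths of 9846 and 3142 UMIs, against 6104 and 2434 UMIs in the other cells. Anxa5 was found in 26.8% and 20.4% of cells outside the B lineage at 1000 UMIs (76.5% and 41.7% before thinning), and in 8.0% and 10.5% of B lineage cells (72.0% and 36.8% before thinning). Vim was found in 21.1% and 6.84% of cells (53.0% and 14.8% before thinning) and Lgals1 in 10.8% and 4.17% (39.8% and 9.56%). S100a10 was found in 3.51% and 1.67%, S100a11 in 7.56% and 2.46%, and Anxa2 in 3.18% and 1.21%. In wild-type B lineage cells the shares of Vim (32.0%), Lgals1 (36.0%), S100a10 (24%), S100a11 (28.0%) and Anxa2 (4.0%) were higher than in the other cells. In knockout B lineage cells Vim and S100a10 were each found in 1 of 19 (5.26%) and S100a11 in 3 of 19 (15.8%), and Lgals1 and Anxa2 in 0 of 19, which allows up to 15.8%. Among these 5 genes only the knockout share of Vim was above a B lineage share that was not 0, and it lay within the counting interval of that share, so these shares are given as values only. S100a4, S100a6 and Anxa1 were found in 0.468%, 3.08% and 1.24% of wild-type cells and 0.25%, 1.63% and 0.334% of knockout cells at 1000 UMIs. For these 3 genes 0 of 25 wild-type B lineage cells had a UMI, which allows a share of up to 12.0%, so their background could not be measured at this depth.

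Within wild type, 8 of the 10 genes were at least 2-fold higher in cells with 2 or more Ccr2 UMIs than in cells with none, where 1.3% of 7063 genes were that much higher and 3.58% that much lower. Each cell was thinned to 2000 UMIs before its Ccr2 UMIs were counted, which left 2008 cells with 0, 419 with 1 and 441 with 2 or more, and set aside 148 shallower cells. The median log2 ratio was 1.39 over the 10 genes and -0.05 over all genes. Anxa5 and Lgals3 were the exceptions, level over the classes at this depth, though Anxa5 was at -0.61 with cells thinned to 1000 UMIs. The count was 6 of 10 with cells thinned to 1000 UMIs, where S100a10 (0.73) and Lgals1 (0.99) were short of 2-fold, 7 with another random seed, where Lgals1 was at 0.93, and 7 without lane 2, where S100a4 was at 0.99. The share of all genes was not counted in these settings or in single lanes. The 10 monocyte markers other than Ccr2 summed to 227, 476 and 923 CPM over the 3 classes, Plac8 among them stood at 123, 289 and 604 CPM, and the median C1q share was 1.2%, 0.85% and 0.75% of UMIs. The 11 dendritic cell markers summed to 134, 159 and 227 CPM, with 0, 2 and 3 of them at 0. The B lineage markers summed to 1855, 130 and 132 CPM and the epithelial markers to 310, 141 and 66.9 CPM. For all values at 2000 UMIs, here and below, the rule for other-type cells was applied again to the thinned cells. It then marked fewer cells than the 175 and 97 marked before thinning. The classes held 49, 9 and 2 other-type cells, and the knockout held 57 among 1595 cells. Without the other-type cells 8 of 10 were at least 2-fold higher, with a median of 1.60, and S100a10 moved from 1.31 to 1.74. The share of all genes was not counted there either. The part of the monocyte and dendritic cell markers in these differences was not tested.

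S100a6 stood at 19.9 CPM (15.8 to 24.8) in cells with 0 Ccr2 UMIs, 87.1 (68.3 to 110) with 1 and 94.1 (75.0 to 117) with 2 or more, a log2 ratio of 2.18 from the lowest to the highest class. Anxa2 stood at 17.7, 64.4 and 83.9 CPM, also 2.18, and S100a11 at 65.7, 142 and 184 CPM, 1.47. S100a10 stood at 38.6, 94.3 and 97.5 CPM, 1.31, and Anxa1 at 8.96, 34.6 and 30.6 CPM, 1.67. In these 5 genes most of the difference lay between 0 and 1 UMI. Only for S100a11 did the interval of the step from 1 to 2 or more (0.37, 0.02 to 0.72) lie above 0.

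Lgals1 stood at 109 CPM (99.3 to 120.0), 180 (153 to 211) and 261 (228 to 297), a log2 ratio of 1.25 with non-overlapping intervals at each step. Vim stood at 251 CPM (235 to 267), 482 (436 to 531) and 545 (498 to 596), a log2 ratio of 1.12. S100a4 stood at 2.99 CPM (1.54 to 5.22) in cells with 0 Ccr2 UMIs, on 12 UMIs in 2008 cells, and at 17.9 and 21.5 CPM in the upper classes, a log2 ratio of 2.50. Its lanes differed: with 2 or more Ccr2 UMIs it was at 5.87 CPM in lane 1 and 75.0 in lane 2, and with 1 at 26.1 CPM in lane 1 and at 0 UMIs in 132 cells in lane 2, which allows up to 11.4 CPM. Without lane 2 its log2 ratio was 0.99, and without lane 1 it was 3.85. The other 7 of the 8 genes were at least 2-fold higher in each lane, with log2 ratios from 1.16 to 2.32 in lane 1 and from 1.01 to 2.51 in lane 2.

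Anxa5 stood at 306 CPM (289 to 324), 301 (265 to 340) and 276 (242 to 312) over the classes, a log2 ratio of -0.15 (-0.36 to 0.05). Lgals3 stood at 516 CPM (494 to 539), 513 (466 to 564) and 546 (499 to 598), a log2 ratio of 0.08 (-0.06 to 0.23). The intervals of both include 0 and leave out a 2-fold difference in either direction. With cells thinned to 1000 UMIs Anxa5 was at -0.61, outside its interval given here. Of the 8 genes that were higher, 6 have a promoter entry and 4 of those hold the TATA letters shown above. S100a6 and S100a11, also higher, hold no TATA letters, and neither do Anxa5 and Lgals3. The share of TATA letters among all genes higher with Ccr2 was not counted, so a link between the letters and Ccr2 was not tested.

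**Figure D3:**
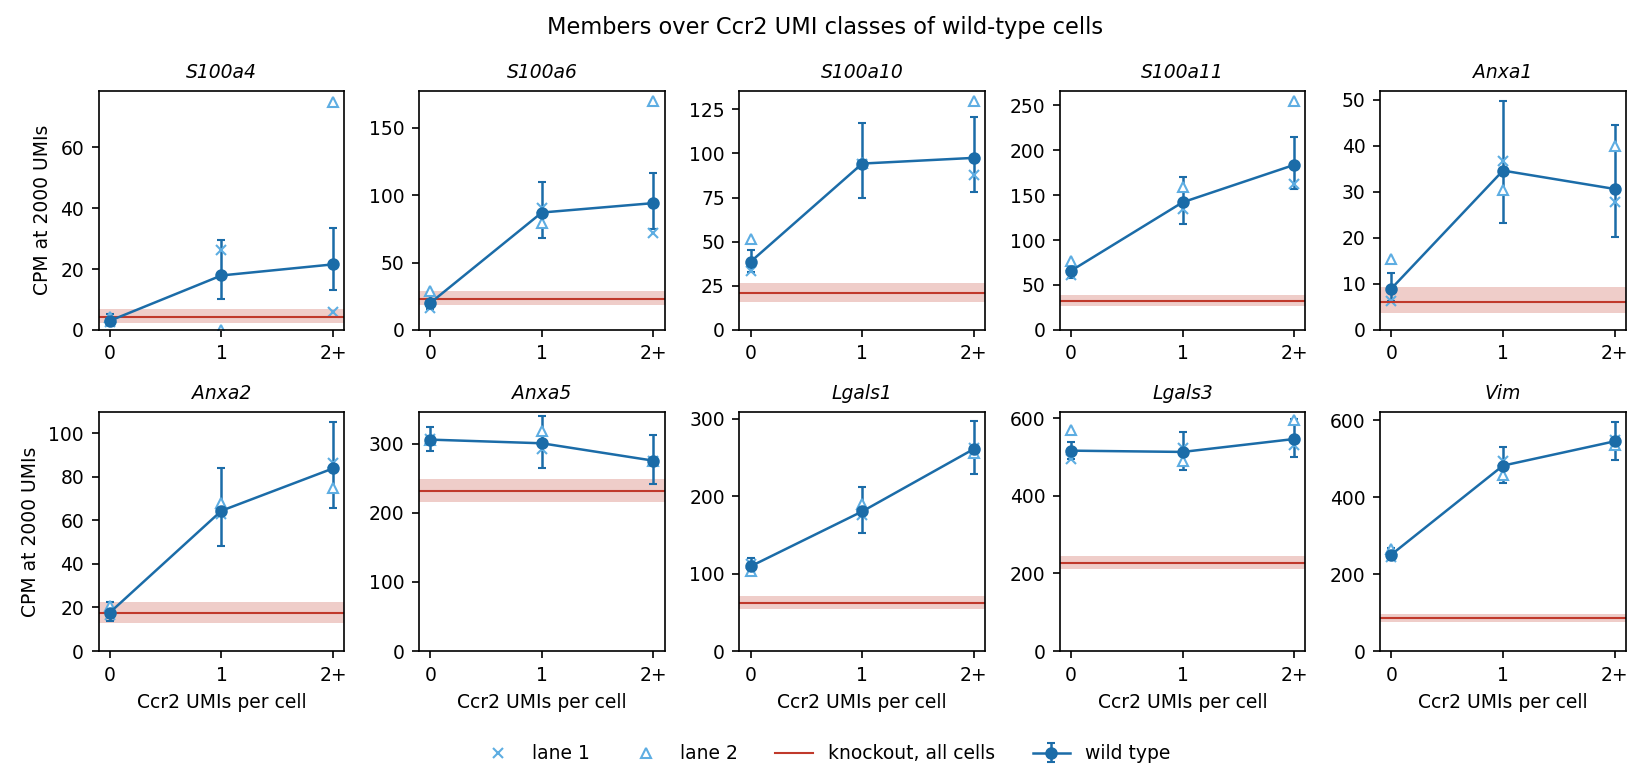
CPM of each gene at 2000 UMIs per cell in wild-type cells with 0, 1 and 2 or more (2+) Ccr2 UMIs (dark line with 95% Poisson intervals), in each lane (crosses, lane 1; open triangles, lane 2), and in all knockout cells at the same depth (red line and interval band). Axes start at 0. Anxa5 and Lgals3 are level over the classes, and the knockout lies below the 0 class for Vim (86.2 against 251 CPM) and Lgals3 (227 against 516) but near it for S100a4, S100a6 and Anxa2.

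Set against the wild-type cells with 0 Ccr2 UMIs alone, the knockout was still at least 2-fold lower for 3 of the 10 genes, where 2.53% of 7403 genes were that much lower. At 2000 UMIs per cell, which kept 1595 knockout cells and set aside 1017, Vim was at 251 CPM in these wild-type cells and 86.2 CPM (76.3 to 97.0) in the knockout, a log2 ratio of -1.53 (-1.74 to -1.35). Lgals3 was at 516 and 227 CPM, -1.18, and S100a11 at 65.7 and 32.0 CPM, -1.02. S100a11 was short of 2-fold without lane 2 (-0.91) and with classes read from unthinned cells (-0.46). Lgals1 (109 and 62.1 CPM, -0.81), S100a10 (38.6 and 20.7 CPM, -0.87) and Anxa5 (306 and 232 CPM, -0.40) were lower by less than 2-fold with intervals below 0. The intervals of S100a4 (0.35, -0.80 to 1.71), S100a6 (0.21, -0.26 to 0.69), Anxa1 (-0.52, -1.47 to 0.25) and Anxa2 (-0.03, -0.57 to 0.49) included 0. Without other-type cells, marked at 2000 UMIs, all 10 were lower and 6 of 10 at least 2-fold lower (2.78% of 7330 genes were), with S100a6 at -0.74, Anxa2 at -0.90 and S100a4 at -0.05. Of the 6, Anxa1 (-1.26, on 10 knockout UMIs) had a mean below 10 CPM, the minimum for the 7330 genes. Against wild-type cells with 2 or more Ccr2 UMIs, 9 of the 10 were at least 2-fold lower in the knockout (4.46% of 7336 genes were), all but Anxa5. The comparisons with the 3 wild-type classes share the same knockout cells. A wild-type cell without a Ccr2 UMI at this depth may still express the gene.

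Ordered by the share of UMIs that C1qa, C1qb and C1qc take together, wild-type cells showed a different split of the 10 genes. The cells were cut into 5 bins of equal size. From the lowest to the highest bin (574 and 573 cells, median C1q share 0.45% and 2.05% of UMIs), 5 of 10 were at least 2-fold lower, where 8.23% of 7197 genes were. The median log2 ratio was -0.81 over the 10 genes and -0.15 over all genes. The count was 4 with cells thinned to 1000 UMIs (Anxa2 at -0.93), without lane 1 (Anxa2 at -0.91) and among cells with no Ccr2 UMI (Anxa2 at -0.80), with medians of -0.55, -0.69 and -0.59. For these settings the share of all genes was not counted. The share of cells with a Ccr2 UMI went from 51.9% to 14.1% over the bins. The lowest bin held 30 of the 60 other-type cells, and its B lineage markers summed to 5965 CPM against 143 to 233 CPM in the other bins.

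S100a6 stood at 106 CPM (88.3 to 127) in the lowest bin and then at 37.5, 22.7, 21.8 and 17.5 CPM, a log2 ratio of -2.54 (-3.37 to -1.92). S100a10 stood at 131 CPM in the lowest bin and between 32.3 and 40.9 CPM in the others, -1.98, and S100a4 at 27.0 CPM and then between 1.75 and 5.24 CPM, -2.17. On its few UMIs S100a4 varied widely, at -3.58 in lane 1, -1.07 (-2.79 to 0.39) in lane 2, -4.67 with another random seed and -4.60 at 1000 UMIs. In these 3 genes most of the difference lay between the lowest bin and the next. Anxa2 stood at 69.7, 31.4, 27.9, 20.0 and 24.4 CPM, -1.47 (-2.19 to -0.87). S100a11 was lower more evenly, at 153, 103, 96.9, 60.1 and 62.0 CPM, -1.29 (-1.73 to -0.90).

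Lgals3 ran the other way, at 408 CPM (372 to 446) in the lowest bin, then 411, 568 and 584, and 632 (587 to 680) in the highest, a log2 ratio of 0.63 (0.46 to 0.80) and 0.54 and 0.84 in the lanes. Vim stood between 280 and 364 CPM in the 5 bins, -0.08 (-0.29 to 0.12), Anxa5 between 279 and 321 CPM, 0.00 (-0.22 to 0.22), and Lgals1 between 134 and 162 CPM, -0.27 (-0.59 to 0.05). Anxa1 stood between 10.5 and 20.9 CPM, -0.32 (-1.28 to 0.59). Its sign turned to 1.30 among cells with no Ccr2 UMI and to 0.01 without lane 1. Over all wild-type cells in the main setting, Vim and Lgals1 were thus higher with Ccr2 but near level over C1q, although Ccr2 and C1q themselves ran in opposite directions. Vim was at -0.43 with another random seed, outside its interval given here, and Lgals1 at -0.46 without lane 1. Cells with and without a Ccr2 UMI differed in this, as the next values show.

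Within single bins of C1q share, cells with a Ccr2 UMI held more S100a6, S100a10, S100a11, Anxa1, Anxa2 and Vim than cells without in 5 of 5 bins, more Lgals1, Lgals3 and S100a4 in 4 of 5, and more Anxa5 in 1 of 5. For S100a4 this rests on few UMIs. From the lowest bin up, cells with and without a Ccr2 UMI held 23 and 8, 4 and 0, 1 and 1, 0 and 3, and 6 and 0. Vim stood at 406 against 272 CPM in the lowest bin and at 735 against 254 CPM in the highest. Lgals1 was the exception in the lowest bin, at 149 CPM with and 176 CPM without a Ccr2 UMI, and stood at 296 against 108 CPM in the highest. S100a6 stood at 144 against 65.2 CPM in the lowest bin and 49.4 against 12.2 CPM in the highest, so that it was lower with C1q in cells of both kinds. S100a10 stood at 139 and 121 CPM in the lowest bin, nearly alike, and at 86.4 against 23.4 CPM in the highest. Of the 60 other-type cells 30 lay in the lowest bin, and 49 were among cells with 0 Ccr2 UMIs. Over the whole wild-type library before thinning, the 175 other-type cells held Lgals1 at 234 CPM and S100a10 at 180 CPM. The part of other-type cells in the 2 lowest-bin values was not tested.

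**Figure D4:**
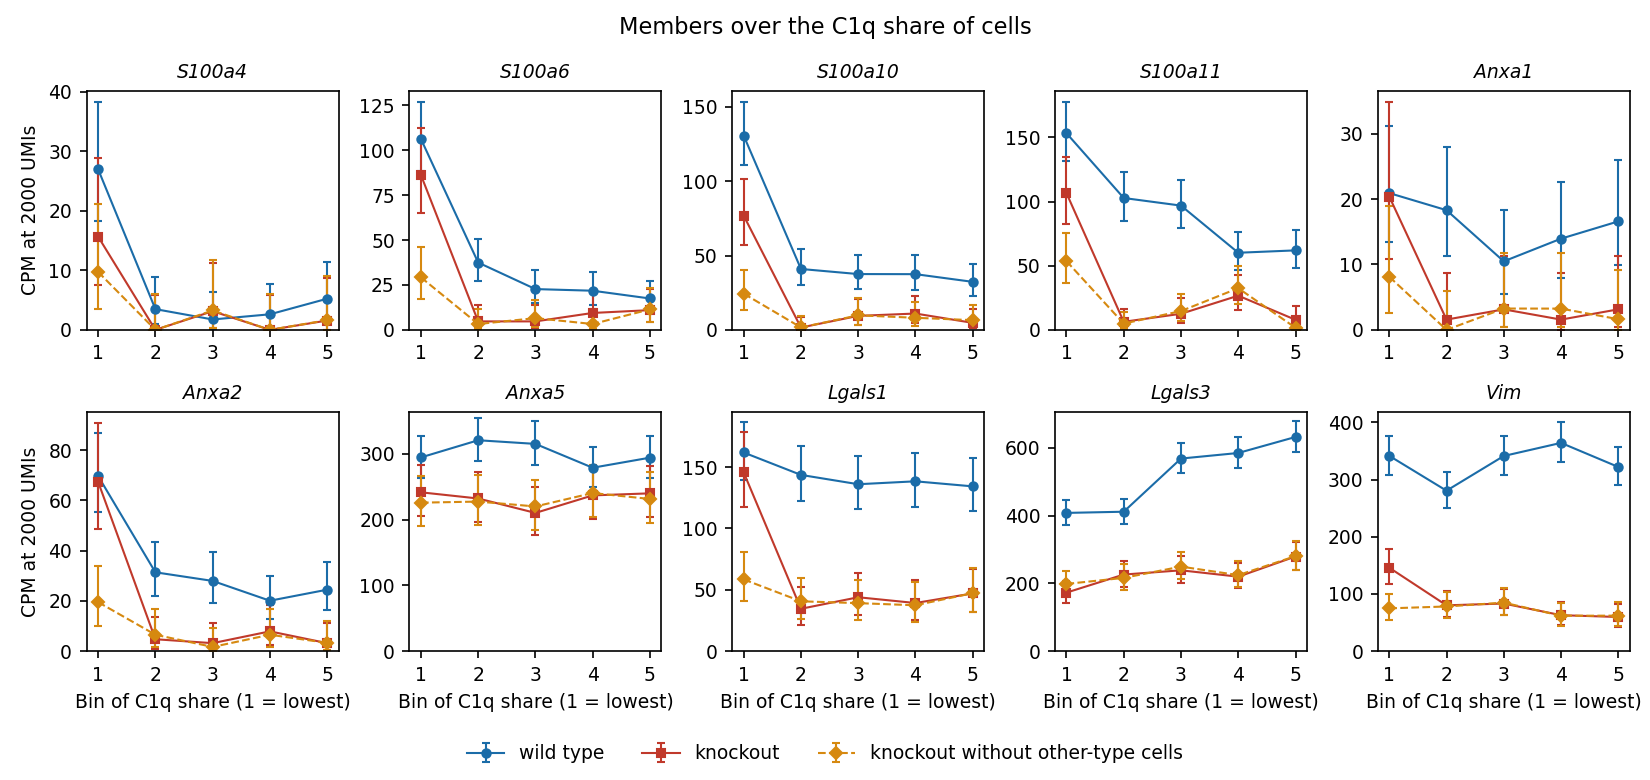
CPM of each gene at 2000 UMIs per cell over bins of cells ordered by C1q share, from lowest (1) to highest (5), in wild type (blue circles), the knockout (red squares) and the knockout without other-type cells (orange diamonds, dashed), with 95% Poisson intervals and axes from 0. Bins are set within each library, and the highest bin has a median share of 2.05% in wild type and 1.3% in the knockout. Vim and Lgals1 show a step after the lowest knockout bin (146 to 79.9 and 146 to 34.5 CPM); without other-type cells it is not seen for Vim (74.7 to 77.9) and smaller for Lgals1 (58.4 to 40.6).

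In the knockout, ordered the same way, 8 of the 10 genes were at least 2-fold lower in the highest than in the lowest bin (9.04% of 7681 genes were). In most of them the difference lay between the lowest bin and the next: S100a10 stood at 76.8 CPM and then at 11 CPM or less, and Anxa2 at 67.4 CPM and then between 3.13 and 7.84 CPM. The lowest bin held 48 of the 57 other-type cells, and its fibroblast markers summed to 1177 CPM against 40.8 to 54.9 CPM in the other bins. Without other-type cells 6 of 10 were at least 2-fold lower (5.24% of 7313 genes with a mean of at least 10 CPM were). Of the 6, S100a4 (9.74 and 1.63 CPM, 6 and 1 UMIs) and Anxa1 (8.12 and 1.63 CPM, 5 and 1 UMIs) were under that minimum. Their intervals (-8.10 to 0.46 and -7.88 to 0.84) include 0. With all knockout cells S100a4 (15.7 and 1.57 CPM) was under it too. Without other-type cells S100a10 stood at 24.4 CPM in the lowest bin and 6.51 in the highest, on 15 and 4 UMIs, a log2 ratio of -1.75 (-3.95 to -0.25). Lgals1 moved from -1.61 to -0.30 and Vim from -1.28 to -0.27 when these cells were left out. Lgals3 was higher in the highest bin here too, at 279 against 172 CPM, a log2 ratio of 0.69 (0.50 without other-type cells), and Anxa5 stood between 210 and 241 CPM in all bins.

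Relatives of the members did not share a pattern. Of 12 further S100 genes, 3 reached a mean of 10 CPM. S100a13 was at 171 CPM in wild type and 85.1 in the knockout, just short of 2-fold with 1 CPM added, and level over Ccr2 (log2 ratio 0.01). S100a1 was at 66.4 and 42.8 CPM (-0.62). S100g, a calcium binder of absorptive enterocytes, was at 2.03 and 20.4 CPM (2.82), and at 3.15 without other-type cells. S100a8 and S100a9, the abundant pair of neutrophils and monocytes, had 0 UMIs in both libraries. Of 9 further annexins 5 reached the minimum and none differed by 2-fold, with Anxa7 the furthest (26.0 and 39.0 CPM, 0.57) and Anxa4 (-0.40), Anxa11 (0.14), Anxa6 (-0.12) and Anxa3 (0.00) between the libraries. Of 8 galectin relatives, of which 7 are among the genes counted, 4 reached it. Lgals3bp, a secreted ligand of Lgals3, was higher in the knockout (131 and 277 CPM, 1.07), and Lgals4, a gut epithelial galectin, lower (28.5 and 10.5 CPM, -1.36). Without other-type cells Lgals4 was at -0.45.

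Of 24 filament and membrane scaffold genes 17 reached 10 CPM, and 5 of these were at least 2-fold lower in the knockout and 0 higher (3.12% of all genes were that much lower and 9.04% higher), with a median log2 ratio of -0.34. They were the actin monomer binder Tmsb10 (868 and 330 CPM, -1.39), the keratin Krt8 (18.3 and 6.61 CPM, -1.35), the LIM protein Crip1 (472 and 201 CPM, -1.23), the actin binder Tagln2 (482 and 213 CPM, -1.17) and the membrane protein Emp3 (117 and 51.9 CPM, -1.16). Krt8 was at -0.16 without other-type cells. Over the Ccr2 classes Tmsb10 (1.38), Crip1 (1.32) and Ahnak (1.40) were at least 2-fold higher and Krt8 (14.4 and 4.54 CPM, -1.48) lower, against 1.3% and 3.58% of all genes. Krt8 had a mean of the 2 classes under 10 CPM, so it is not among the genes behind these shares. Ahnak, a scaffold that binds the complex of Anxa2 with S100a10, was level between the libraries (81.4 and 84.9 CPM, 0.06). Of 15 receptors and partners 12 reached the minimum, 3 were at least 2-fold higher in the knockout and 0 lower, against the same 9.04% and 3.12%. These were the plasminogen activator Plau (12.4 and 66.8 CPM, 2.34), its receptor Plaur (43.5 and 198 CPM, 2.16) and the efferocytosis receptor Mertk (35.2 and 96.8 CPM, 1.43). Plg, the plasminogen gene, had 0 UMIs in both libraries. The Anxa1 receptor genes Fpr1 (0.87) and Fpr2 (0.05) were not 2-fold apart. Over the Ccr2 classes 0 of the 12 were at least 2-fold higher, and Fpr1 (13.9 and 4.54 CPM, -1.43) and the tetraspanin Cd63 (312 and 51.0 CPM, -2.59) were at least 2-fold lower. Fpr1, like Krt8, was under 10 CPM on the mean of the 2 classes, and no counting interval is given for these list genes.

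**Figure D5:**
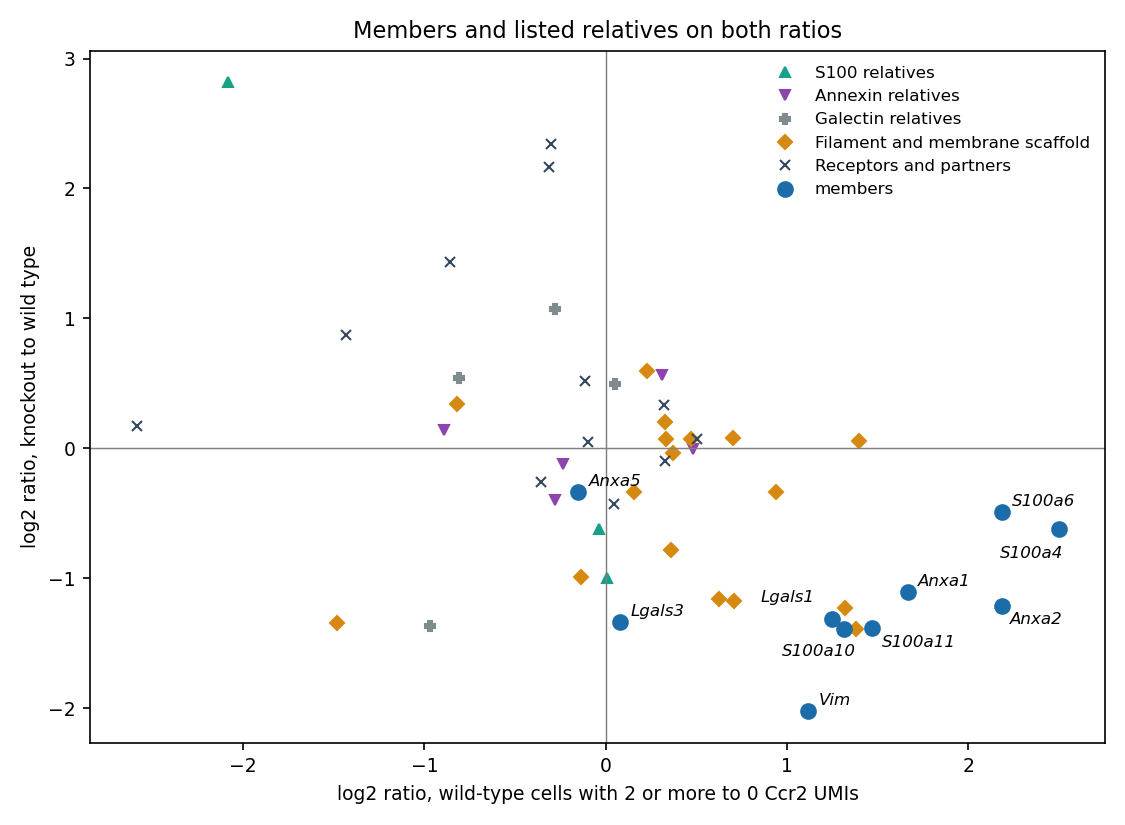
Log2 ratio of knockout to wild type (vertical axis) against the log2 ratio of wild-type cells with 2 or more to 0 Ccr2 UMIs (horizontal axis) for the 10 genes (blue circles, named) and for listed relatives with a mean of at least 10 CPM. The 8 genes from Vim (1.12) to S100a4 (2.50) lie to the lower right, Anxa5 (-0.15, -0.33) and Lgals3 (0.08, -1.34) near the vertical line, and S100g (2.82) at the upper left.

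Across single wild-type cells the correlations between the 10 genes were low. At 2000 UMIs the share of cells outside the B lineage with a UMI ran from 0.809% for S100a4 to 55.5% for Lgals3. A low share pulls r toward 0, and r was not taken for other gene pairs of like level. How closely the 10 genes are coupled therefore cannot be read from these values. Over 2868 cells of 1 library at 2000 UMIs, the 45 pairs had a median Pearson r of 0.09 on log1p UMIs, and the highest was that of S100a4 with S100a6 at 0.42 (0.33 and 0.55 in the lanes), which rests on the few cells with S100a4. In the knockout the median was 0.15, and 0.05 without other-type cells. Among 2349 other genes found in at least 10% of these cells, those most like the summed members were Crip1 (r = 0.32), Tmsb10 (0.26), Rplp0 (0.26), Rpl13 (0.23), Ccr2 (0.22), Tagln2 (0.21), Ccl6 (0.20), Rps2 (0.20), Rps6 (0.20) and Gm8730 (0.19). Those least like them were Csf1r (-0.24), Adamdec1 (-0.22), Dnase1l3 (-0.21), mt-Cytb (-0.19) and Mmp9 (-0.19). These values are weak and are given as a ranking only. The summed members are a sum of UMIs, in which the abundant genes weigh most. Before thinning, Lgals3, Vim and Anxa5 held 12109, 7881 and 6161 of the 35473 wild-type UMIs of the 10 genes. The cells share a library, and ribosomal protein genes have near-identical copies that counting can divide.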

How the data were processed

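The deposited matrices hold raw UMI counts per gene and cell, made by the authors with Cell Ranger 3.0.1 on mm10, per the submitters' processing notes. The annotation, the cell calling and any equalising of depth between lanes are not given in the sources used here. Both matrices list 27998 genes, and 98.7% of their identifiers are in GENCODE M21 (GRCm38), the source of the coordinates. A 3′ count is not divided by transcript length.

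Kept cells had 200 genes or more and no more than 10% mitochondrial UMIs. UMIs were summed per library and scaled to 1000000 (CPM). Total depth was 20678108 UMIs in wild type (14571081 and 6107027 in the lanes) and 7265386 in the knockout. Ratios are log2 with 1 CPM added, and counting intervals are exact Poisson or Clopper-Pearson intervals at 95%. No p-value can be had from 1 library per genotype. For classes of cells each cell was thinned at random (seed 1) to 2000 UMIs, and for shares to 1000 UMIs. Doublets were kept. Scrublet (scanpy 1.11.5) marked 12 of 5628 cells by its automatic threshold, which was taken as a failure of that threshold, and removal of the highest scores up to 0.8% per 1000 cells was an alternative. numpy 2.4.6, scipy 1.17.1, pandas 2.3.3 and matplotlib 3.10.9 were used, and the ratio, interval and thinning steps were tested on simulated data.

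The 10 genes, the gene lists and the marker lists were chosen with earlier results of these data known. Named genes are the 10, list genes with a mean of at least 10 CPM that differ by at least 2-fold between the libraries (or, with fewer than 5, the 5 furthest from 0), the 10 genes most and 5 least correlated with the summed members, and Ccr2, Plac8 and C1q. Ahnak, Cd63, Fpr1, Fpr2, Plg, S100a8 and S100a9 were named after their values were seen. Alternatives covered the pseudocount, scaling, cell filters, doublets, other-type cells, depth, seed, lanes and the weighting of C1q bins.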

Additional observations from a re-analysis of the deposited data

How the results depend on the processing

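No paired analysis was possible because each genotype is 1 library and the labels carry no replicate numbers. No comparison of the 10 genes as a group reversed under any alternative that was run. For most alternatives the share of all genes at least 2-fold apart was not counted, so their counts stand without it. The count of 7 genes at least 2-fold lower in the knockout ranged from 5 (pseudocount of 10 CPM) to 8, and their median log2 ratio of -1.26 was -1.02 with that pseudocount and -1.81 without other-type cells. The count was 6 in cells with 2000 to 4000 UMIs, at no more than 5% mitochondrial UMIs and without lane 2. Leaving out a lane gave medians of -1.36 and -1.24. Over the Ccr2 classes the count of 8 was 6 at 1000 UMIs per cell and 7 with another seed or without lane 2, and the median of 1.39 was 1.21 at 1000 UMIs and 1.77 with classes read from unthinned cells. Against wild-type cells with 0 Ccr2 UMIs, the count of 3 genes was 5 at 1000 UMIs per cell, 7 within bins of C1q share (mean of the 5 log2 ratios, median -1.29), 5 with the bins weighted equally, and 6 without other-type cells. It was 5 without wild type lane 1, 2 without lane 2 and 2 with classes read from unthinned cells (median -0.43), where S100a4 was at 0.98, S100a6 at 0.64, Anxa2 at 0.21, Anxa1 at 0.13 and S100a11 at -0.46. In this comparison the signs of S100a4, S100a6, Anxa2 and Anxa1 turned in 5, 4, 2 and 1 of 7 alternatives. The equal weighting, and both alternatives for the knockout's C1q bins, were chosen after seeing the data. Over the C1q bins of wild type the count of 5 was 4 in 3 of 9 alternatives, and the signs of Anxa5, Anxa1 and Vim turned in 6, 2 and 2 of 9 alternatives. Depth limits the rarest gene most: S100a4 rests on 177 and 38 UMIs.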
